A study of Homo sapiens with 12 samples.

Results

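HK-2 cells that received doxycycline (Dox) together with the kinase inhibitor MSC2530818 were compared with HK-2 cells that received neither, so the comparison describes the net state of the transcriptome when both agents were present. HK-2 is a human proximal tubule epithelial line. Here it carried a Dox-inducible PRCC-TFE3 gene, in which part of PRCC is joined to the transcription factor gene TFE3, as in translocation renal cell carcinoma. MSC2530818 inhibits CDK8 and CDK19 and was given at 100 nM. All cells, controls included, carried the inducible gene and were kept under puromycin and blasticidin for 48 h of treatment, and 4 groups of 3 libraries were made: vehicle (DMSO), Dox, inhibitor, and Dox plus inhibitor. Cells lacking the inducible construct were not treated with Dox, so effects of the drug itself and of the fusion cannot be told apart, and the labels do not say whether the line is 1 clone or which dose of Dox was used. The 6 libraries of the Dox plus inhibitor and vehicle groups, of 12 in all, make up the comparison. The Dox and inhibitor groups are given beside them.

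TFE3 belongs to the MiT/TFE family of transcription factors, which bind short E-box sequences in front of genes for lysosomal enzymes, the lysosomal proton pump and the Rag GTPases that report amino acid supply to mTORC1. CDK8 and CDK19 are alternative kinases of the Mediator complex, where they sit with cyclin C, MED12 and MED13 in a detachable module between transcription factors and RNA polymerase II. Mediator kinases are known both to support and to restrain signal-induced genes, including those of interferon, NF-kB, TGF-beta and serum responses.

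Poly(A) RNA was measured as FPKM, a gene-level abundance corrected for the length of the transcript and the size of the library. A gene was tested when it reached an FPKM of 1 in at least 3 of the 12 libraries, which held for 12649 of 26334 genes (48%). The FPKM of a library summed to between 429208 and 473950, and read counts were not used here, so the depth behind a value is unknown. Pearson r between libraries of a group, across genes on the log2 scale, was 0.979 to 0.9932. Along principal component 1, with 49.1% of the variance, the Dox plus inhibitor libraries lay at 2.7 to 10, between the inhibitor libraries at 22.7 to 37.5 and the vehicle libraries at -14.2 to 2, with the Dox libraries at -30.9 to -27.1. Vehicle replicate 1 stood apart on the second component (19.2%) at 29.7, against 1.2 and 10.6 for the other vehicle libraries. Replicate 1 was also the highest on this component with the inhibitor (16.4, against -3.7 and -12.7) and with Dox plus inhibitor (-3.8, against -18.5 and -19.3). With Dox it was not (1.7, against 1.8 and -3.4). Of 30 proximal tubule markers 15 were at or below 0.1 FPKM in all 12 libraries, among them LRP2, CUBN, SLC34A1 and HNF4A, whereas PAX8, a renal epithelial transcription factor, stood at 92 ± 8.27 FPKM in vehicle and 111 ± 2.31 in Dox plus inhibitor (SD, n = 3). Defining markers of podocytes (NPHS1), endothelium (PECAM1, KDR), leukocytes (PTPRC) and mesenchymal cells (PDGFRA, PDGFRB) were also at or below 0.1 FPKM in every library. Other members of these lists were present. The leukocyte list of 13 genes, which also holds the haemoglobin genes HBA1 and HBB, summed to 65.3 to 82.8 FPKM in vehicle and 80.3 to 81.4 in Dox plus inhibitor. The sums were 13.8 to 16.6 and 19.0 to 22.2 for 13 endothelial markers, and 40.8 to 48.6 and 43.0 to 49.3 for 9 podocyte markers. CD74 and EGFL7 were called higher and CD68 lower, with the EGFL7 call lost in 3 and the CD68 call in 7 of 22 alternative settings.

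In the Dox plus inhibitor cells a broad set of transcripts differed from vehicle, with more genes lower than higher and most changes small. Of the 12649 genes 3238 (25.6%) passed an adjusted p under 0.05 in limma, of which 1343 (10.6%) were higher and 1895 (15.0%) lower. A change of at least 2-fold on the log2(FPKM + 1) scale was reached by 67 of the higher and 30 of the lower genes, and the median log2 change of all tested genes was -0.01. The excess of lower over higher calls shrank with median-ratio scaling, which gave 1485 higher and 1586 lower. Among the genes named here the highest changes were those of CCL20, a chemokine gene, ACTA2, a contractile actin gene, and EPPK1, a cytoskeletal linker gene. The lowest included the immediate early gene EGR1, the cytokine gene IL11, the growth factor gene AREG and the ribonucleotide reductase gene RRM2. For the same tests, 4063 genes (32.1%) differed between Dox plus inhibitor and Dox (11.3% higher, 20.8% lower), and 2304 (18.2%) between Dox plus inhibitor and inhibitor (12.2% higher, 6.06% lower). The count of 2304 fell to 1352 on omitting inhibitor replicate 2, 1245 on omitting Dox plus inhibitor replicate 2 and 1121 on omitting replicate 3 of that group. Dox against vehicle gave 2269 (17.9%, with 10.6% higher and 7.31% lower) and inhibitor against vehicle 4802 (38.0%, with 11.7% higher and 26.3% lower). These last comparisons share the vehicle libraries with the first, so their values are only set side by side. Values were not rescaled, and the median log2 change of all tested genes differed among the comparisons. It was -0.08 for Dox plus inhibitor against Dox and 0.08 against inhibitor. For Dox against vehicle it was 0.04 and for inhibitor against vehicle -0.12, and such offsets tilt the split of higher and lower calls. Below, changes are log2 differences of log2(FPKM + 1) with SE, which understate changes of genes with a low FPKM, FPKM values are means ± SD over 3 libraries, and each adjusted p is from limma with Benjamini-Hochberg adjustment over all tested genes.

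**Figure D1:**
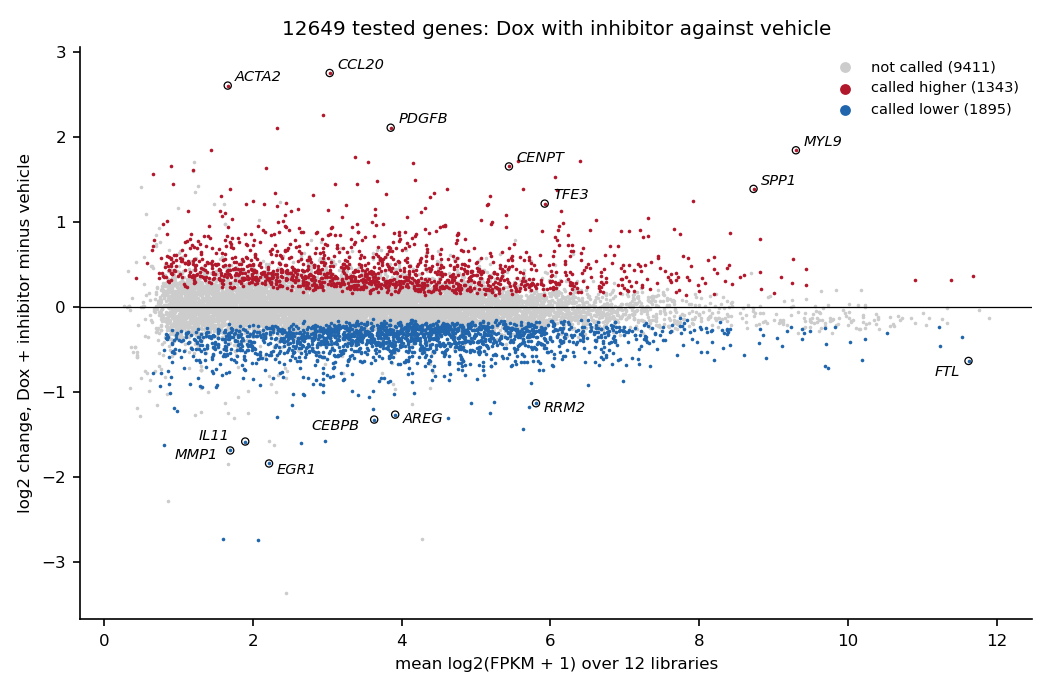
Log2 change of Dox plus inhibitor against vehicle (vertical axis) over the mean log2(FPKM + 1) of 12 libraries (horizontal axis), 1 point per tested gene; red points are the 1343 genes called higher, blue the 1895 called lower and grey the 9411 not called. Calls occur at all levels, and few of them exceed 1 log2 unit; circled genes are named in the text.

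TFE3 and PRCC, the partner genes of the fusion, are given at gene level, so the amount of the fusion transcript itself was not measured. TFE3 (chromosome X, 49028726 to 49043486, minus strand, GRCh38) read 38.9, 35.8 and 32.7 FPKM in the vehicle libraries, 149, 154 and 146 with Dox, 29.7, 27.4 and 26.3 with the inhibitor, and 87.6, 83.2 and 81.7 with Dox plus inhibitor. All 3 Dox plus inhibitor libraries were thus above every vehicle and inhibitor library and below every Dox library. TFE3 rose by 1.21 ± 0.07 against vehicle (adjusted p = 7.2e-07), and its level was lower than with Dox alone (log2 change -0.82 ± 0.07, adjusted p = 5e-06). PRCC (chromosome 1, 156750610 to 156800817, plus strand) read 32.1, 24.9 and 28.9 FPKM with Dox plus inhibitor and 30.9, 28.8 and 25.8 with vehicle, and the groups overlapped (change 0.01 ± 0.10, adjusted p = 0.98). Reads of the introduced transcript and of the resident TFE3 and PRCC genes are summed in these values and cannot be told apart. TFEB, the paralogue of TFE3, was at 0.703 ± 0.117 FPKM with Dox plus inhibitor against 1.43 ± 0.228 with vehicle (change -0.51 ± 0.11, adjusted p = 0.0051), and at 0.573 ± 0.129 with the inhibitor alone.

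Of the 7 Mediator kinase module genes 1 (14.3%) passed the test, against 25.6% of all genes. MED12L, a paralogue of MED12, was at 1.36 ± 0.0416 FPKM against 1.00 ± 0.11 in vehicle (change 0.24 ± 0.08, adjusted p = 0.043), and this call was lost under 15 of the 21 alternative settings that tested it. CDK8 stood at 12.2 ± 0.444 FPKM against 10.3 ± 0.756 (adjusted p = 0.05, just outside the threshold), and CDK19 at 8.8 ± 0.874 against 7.6 ± 0.544 (change 0.19 ± 0.09, adjusted p = 0.15). CCNC, which encodes cyclin C, read 45.5, 52 and 61.6 FPKM with Dox plus inhibitor and 39.4, 51.4 and 57.2 with vehicle, so that the groups overlapped.

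**Figure D2:**
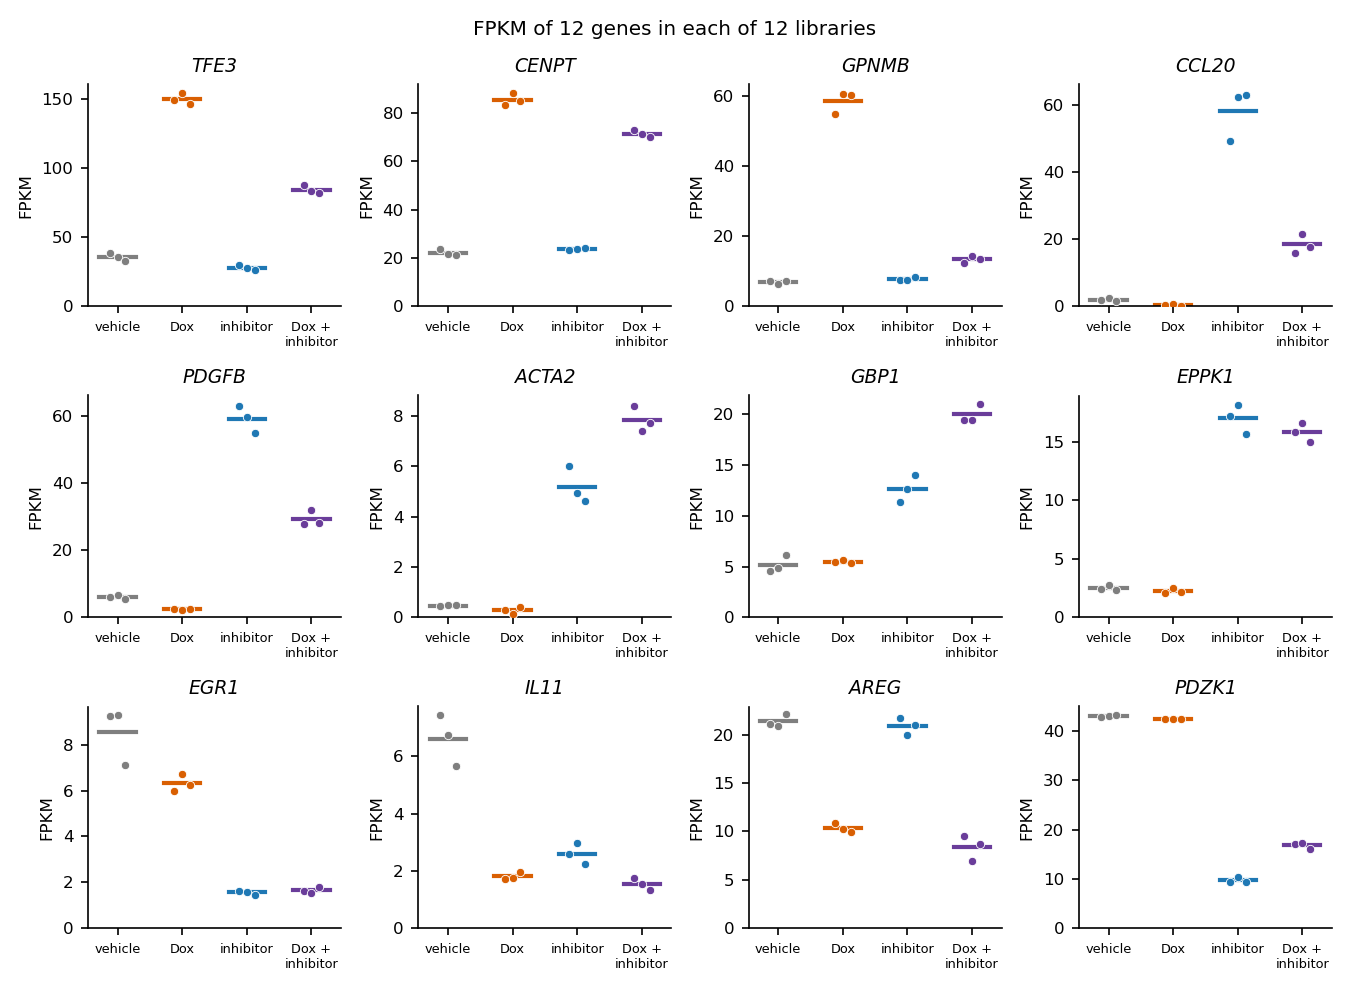
FPKM (vertical axes, from 0) of 12 genes in the 12 libraries; each point is a library and each bar the mean of 3. With Dox plus inhibitor, TFE3 and CENPT stay well above vehicle, GPNMB lies above vehicle and far below Dox, CCL20 and PDGFB lie between inhibitor and vehicle, and EGR1, IL11, AREG and PDZK1 lie below vehicle.

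Of 14 tested genes used as markers of translocation renal cell carcinoma 8 (57.1%) were called higher and 0 lower, against 10.6% and 15.0% of all genes (median change 0.34, against -0.01 for all tested genes). With Dox alone 12 of the 14 were called higher (median 1.44), and 10 of the 14 were lower with Dox plus inhibitor than with Dox alone. GPNMB, a lysosomal and melanosomal glycoprotein used as a diagnostic marker, read 12.3, 14.4 and 13.6 FPKM with Dox plus inhibitor, 7.36, 6.43 and 7.27 with vehicle, and 55, 60.7 and 60.3 with Dox. Its 3 groups did not overlap, and it rose by 0.85 ± 0.07 against vehicle (adjusted p = 1.8e-05). ASAH1, the lysosomal acid ceramidase, stood at 46.7 ± 4.97 FPKM against 18.4 ± 3.23 in vehicle and 56.4 ± 2.97 with Dox, and rose by 1.30 ± 0.13 over vehicle (adjusted p = 3.5e-05), and its difference from Dox alone missed the threshold (-0.27 ± 0.13, adjusted p = 0.13). FNIP2, a partner of folliculin, rose by 0.61 ± 0.09 and UAP1L1, a relative of an amino sugar pyrophosphorylase, by 0.57 ± 0.08 (adjusted p = 0.00066 and 0.0004). NMRK2, a nicotinamide riboside kinase, went from 0.12 ± 0.0458 FPKM in vehicle and 15.3 ± 2.41 with Dox to 0.607 ± 0.41 with Dox plus inhibitor (adjusted p = 0.048 against vehicle), a call that 12 of 21 alternative settings lost. SQSTM1, the autophagy receptor p62, read 167, 157 and 150 FPKM against 177, 152 and 139 in vehicle and 290 ± 19.3 with Dox (change from vehicle 0.02 ± 0.10, adjusted p = 0.89). This list was compiled from general knowledge of such tumours but with earlier results of these data known, so its counts are a description. It held 5 called members when the 6 compared libraries were fitted alone.

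CENPT, which encodes a kinetochore protein, stayed close to its level with Dox. It read 72.9, 71.3 and 69.9 FPKM with Dox plus inhibitor, 23.6, 21.6 and 21 with vehicle, 23.2, 23.9 and 24.2 with the inhibitor, and 83.3, 88.4 and 84.7 with Dox. The rise over vehicle was 1.65 ± 0.05 (adjusted p = 3.6e-08) and the difference from Dox alone -0.26 ± 0.05 (adjusted p = 0.0033). C21orf91 stood at 4.81 ± 0.749 FPKM against 1.46 ± 0.455 in vehicle and 8.32 ± 0.894 with Dox, and rose by 1.25 ± 0.15 over vehicle (adjusted p = 0.00018). By contrast PTGDS, a prostaglandin D synthase, was at 4.35 ± 1.03 FPKM, 3.78 ± 0.493 in vehicle and 21.9 ± 3.81 with Dox (change from vehicle 0.15 ± 0.19, adjusted p = 0.61), and BEX2 at 1.78 ± 0.328, 1.84 ± 0.46 and 7.45 ± 0.586 (change -0.02 ± 0.15, adjusted p = 0.94). RENBP, a renin-binding epimerase of amino sugars, rose from 2.6 ± 0.21 to 3.8 ± 0.741 FPKM (0.41 ± 0.11, adjusted p = 0.023; lost on omitting vehicle replicate 1 or Dox plus inhibitor replicate 3 and in the fit of 6 libraries), with 17.8 ± 0.987 under Dox alone. These 5 genes were chosen for the size of their change with Dox, or of opposite changes with Dox and the added inhibitor, so their Dox values are a description.

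Lysosomal genes were split, with more members higher than lower. Of 45 tested hydrolases 18 were called higher and 6 lower (median 0.18), and of 40 membrane and trafficking genes 14 were higher and 5 lower (median 0.16), against 10.6% and 15.0% of all genes. Among the hydrolases, GAA, the acid alpha-glucosidase, read 10.9, 10.7 and 9.94 FPKM with Dox plus inhibitor and 7.29, 7.56 and 6.6 with vehicle (change 0.50 ± 0.06, adjusted p = 0.00024). Its level with Dox alone was 10.5 ± 0.498 and with the inhibitor alone 7.44 ± 0.223. ACP5, an acid phosphatase, rose by 0.50 ± 0.10 (adjusted p = 0.0033). SMPD1, the acid sphingomyelinase, went the other way, with 1.99, 1.84 and 2.28 FPKM against 4.92, 4.53 and 3.93 (change -0.84 ± 0.10, adjusted p = 0.00011). It was at 6.64 ± 0.534 with Dox and 1.06 ± 0.165 with the inhibitor. PSAP, the precursor of the saposins and the most abundant hydrolase-list member not called, was at 759 ± 24.5 FPKM against 671 ± 57.7 (adjusted p = 0.087). Of the membrane proteins, SLC17A5, the sialic acid exporter, rose by 0.59 ± 0.08, the channel gene TPCN1 by 0.57 ± 0.07 and SCARB2, a receptor that carries glucocerebrosidase, by 0.41 ± 0.05, whereas RILP, a Rab7 effector, fell by 0.51 (-0.51 ± 0.13, adjusted p = 0.017; lost on omitting vehicle replicate 1 or Dox plus inhibitor replicate 2). The hydrolases had 3 lower without vehicle replicate 1 or Dox plus inhibitor replicate 2, and 2 lower when vehicle replicate 2 or Dox plus inhibitor replicate 3 was omitted. The membrane list had 2 lower without vehicle replicate 1 and 3 without Dox plus inhibitor replicate 2 or 3, and it gave 9 higher calls without Dox plus inhibitor replicate 3, and also 9 when the 6 compared libraries were fitted alone.

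The V-ATPase acidifies lysosomes. Of its 18 tested subunits 6 (33.3%) were called higher and 2 (11.1%) lower, against 10.6% and 15.0% of all genes. Their median was 0.01, where Dox alone had 14 higher with a median of 0.49. ATP6V1A, the catalytic subunit, was at 13.5 ± 0.548 FPKM with Dox plus inhibitor, 17.4 ± 1.63 with vehicle, 34.5 ± 1.05 with Dox and 7.17 ± 0.365 with the inhibitor (change from vehicle -0.34 ± 0.07, adjusted p = 0.0043). ATP6V1F rose by 0.30 ± 0.09 (adjusted p = 0.03; lost in the fit of 6 libraries and on omitting vehicle replicate 2 or 3 or Dox plus inhibitor replicate 1 or 2), and ATP6V0C, the pore subunit, read 111, 92.1 and 95.3 FPKM against 105, 101 and 94.5, with the groups overlapping. Without vehicle replicate 2 the higher count of this list was 1 and without Dox plus inhibitor replicate 2 it was 2, and the 6 compared libraries alone gave 2. Of 31 folliculin, Rag GTPase and amino acid sensing genes 6 (19.4%) were higher and 1 (3.23%) lower, with 3 higher without vehicle replicate 2, 4 lower without vehicle replicate 3, and 3 higher in the fit of 6 libraries. RRAGC read 20.1, 22.4 and 22.2 FPKM against 15.8, 16.2 and 16.8 in vehicle and 43.8 ± 0.949 with Dox (change from vehicle 0.39 ± 0.05, adjusted p = 0.00038), and RRAGD 1.51 ± 0.0924 against 1.02 ± 0.116 and 8.71 ± 0.813 (0.31 ± 0.08, adjusted p = 0.015), a call lost without vehicle replicate 2, with the GC and length trend removed and in the fit of 6 libraries. Of 38 autophagy genes 2 (5.26%) were higher and 5 (13.2%) lower, the latter near the 15.0% of all genes. NBR1, an autophagy receptor, fell by 0.53 (-0.53 ± 0.04, adjusted p = 1.4e-05), and OPTN, another receptor, rose by 0.31 ± 0.05 (adjusted p = 0.00063). The lower count of the autophagy list was 2 without vehicle replicate 2 or Dox plus inhibitor replicate 3, 3 without vehicle replicate 1, any 1 Dox replicate, inhibitor replicate 2 or Dox plus inhibitor replicate 1, and 9 with the GC and length trend removed.

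The promoter windows of GAA and RRAGC are printed because both genes rose and hold the E-box core CACGTG, the letters that MiT/TFE factors are known to read. A window runs from 250 bases before to 50 after the RefSeq start (GRCh38.p14), 9426 of the 12649 tested genes had one, and capitals mark CACGTG, which reads the same on both strands.
GAA: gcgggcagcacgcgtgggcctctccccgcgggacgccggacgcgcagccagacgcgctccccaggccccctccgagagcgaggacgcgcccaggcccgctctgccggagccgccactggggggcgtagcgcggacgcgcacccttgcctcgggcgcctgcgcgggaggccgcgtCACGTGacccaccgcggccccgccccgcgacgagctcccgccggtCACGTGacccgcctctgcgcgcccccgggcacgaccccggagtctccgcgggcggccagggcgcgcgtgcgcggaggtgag
RRAGC: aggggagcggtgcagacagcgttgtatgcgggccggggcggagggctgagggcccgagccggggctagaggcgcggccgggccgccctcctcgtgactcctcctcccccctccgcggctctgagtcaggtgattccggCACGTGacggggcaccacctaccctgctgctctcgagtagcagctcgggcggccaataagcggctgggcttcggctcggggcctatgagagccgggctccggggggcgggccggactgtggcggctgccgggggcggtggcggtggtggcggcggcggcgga
The GAA window is chr17:80101331-80101630 on the plus strand and holds 2 matches, and the RRAGC window is chr1:38859723-38860022 on the minus strand and holds 1. CACGTG was found in 6 of 28 windows of the hydrolases (21.4%), 10 of 32 of the membrane list (31.2%), 4 of 13 of the V-ATPase (30.8%) and 7 of 25 of the folliculin and Rag list. It was in 10.5% of the windows of tested genes and 7.43% of all 27305 windows. Over these lists together it was in 10 of 31 windows of members called higher, 4 of 10 called lower and 13 of 57 not called. A match is a description of the letters and not of a bound site.

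Of 25 tested cholesterol synthesis and uptake genes 17 (68.0%, against 15.0% of all genes) were called lower and 1 higher, with a median of -0.40, and leaving out any 1 library gave 14 to 19 lower. MVK, mevalonate kinase, read 7.62, 7.23 and 6.46 FPKM with Dox plus inhibitor and 17.5, 15.1 and 14.4 with vehicle, without overlap (change -1.04 ± 0.12, adjusted p = 9.4e-05). HMGCS1, which makes HMG-CoA, fell by 0.85 (-0.85 ± 0.09), ACAT2 fell by 0.69 (-0.69 ± 0.10) and FDFT1, squalene synthase, fell by 0.68 (-0.68 ± 0.09). HMGCS1 stood at 26.9 ± 1.85 FPKM with Dox plus inhibitor, 25.4 ± 0.725 with Dox, 29.3 ± 3.78 with the inhibitor and 49.2 ± 3.5 with vehicle, so each treated group was lower than vehicle and the treated groups lay close together. FDPS, farnesyl diphosphate synthase, was at 159 ± 1.91 FPKM against 165 ± 21.6 (change -0.04 ± 0.09, adjusted p = 0.77). In the fatty acid and triglyceride list 6 of 24 members (25.0%) were higher and 4 (16.7%) lower (median 0.11), against 10.6% and 15.0% of all genes. The lower count of this list was 1 without vehicle replicate 2, Dox replicate 1 or 2, inhibitor replicate 2 or Dox plus inhibitor replicate 3, and 2 without vehicle replicate 1 or Dox plus inhibitor replicate 1 or 2. SREBF1, a master regulator of lipid synthesis, rose by 0.67 ± 0.11 (adjusted p = 0.00093), ME1, malic enzyme, by 0.56 ± 0.06 and SCD, the stearoyl-CoA desaturase, from 196 ± 18.2 to 274 ± 6.79 FPKM (0.48 ± 0.08, adjusted p = 0.0011).

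Cell cycle genes were lower as a group. Of 32 tested G1/S and replication genes 21 (65.6%) were called lower and 0 higher (median -0.28), and of 41 G2/M and mitosis genes 25 (61.0%) were lower and 1 higher (median -0.44), against 15.0% lower and 10.6% higher over all genes. Leaving out any 1 library gave 16 to 22 and 22 to 28 lower. RRM2, the small subunit of ribonucleotide reductase, read 42.3, 35.8 and 38.5 FPKM with Dox plus inhibitor and 86.5, 83.3 and 88.9 with vehicle (-1.13 ± 0.07, adjusted p = 1.3e-06). Its level with Dox alone was 79.2 ± 4.26 and with the inhibitor alone 34.3 ± 1.92. E2F8 and E2F2, transcription factors of replication genes, fell by 0.78 (-0.78 ± 0.11) and 0.71 (-0.71 ± 0.09), and TK1, thymidine kinase, went from 168 ± 16.5 to 104 ± 6.1 FPKM. CDK4 was not called (127 ± 1.14 against 141 ± 12, adjusted p = 0.22). KIF20A, a kinesin of cytokinesis, read 23.7, 21.6 and 19.8 FPKM against 51.3, 48 and 46.1 (-1.13 ± 0.07, adjusted p = 2.4e-06). The mitotic kinase gene AURKA fell by 0.65 (-0.65 ± 0.07), with 73.7 ± 5.53 FPKM against 62.4 ± 3.67 in the inhibitor group and 116 ± 2.75 in vehicle. CENPT, above, was the 1 member called higher, and the checkpoint gene BUB3 was at 120 ± 5.35 FPKM against 125 ± 3.78 (adjusted p = 0.44). Against the inhibitor alone, 14 of the 41 G2/M genes were called higher and 0 lower (median 0.24), where all tested genes had 12.2% and 6.06% and a median of 0.08. Fewer dividing cells and less of these RNAs per cell cannot be told apart in bulk libraries, which holds for every list here. Among CDK inhibitors and p53 targets 7 of 26 (26.9%) were higher and 3 (11.5%) lower, with 3 higher without vehicle replicate 2 or Dox plus inhibitor replicate 2 and 4 on omitting Dox plus inhibitor replicate 1 or 3. CDKN2B, an inhibitor of CDK4 and CDK6, rose by 0.39 ± 0.07 (adjusted p = 0.0029), and DDB2, a DNA repair gene, fell by 0.58 (-0.58 ± 0.11, adjusted p = 0.0027).

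Windows of CDCA8 and PLK1, both mitotic genes that fell, are printed because they hold TTTGAA, the cell cycle genes homology region (CHR) that is known from late cell cycle promoters. Capitals mark it, and both strands were searched (TTCAAA on the other strand).
CDCA8: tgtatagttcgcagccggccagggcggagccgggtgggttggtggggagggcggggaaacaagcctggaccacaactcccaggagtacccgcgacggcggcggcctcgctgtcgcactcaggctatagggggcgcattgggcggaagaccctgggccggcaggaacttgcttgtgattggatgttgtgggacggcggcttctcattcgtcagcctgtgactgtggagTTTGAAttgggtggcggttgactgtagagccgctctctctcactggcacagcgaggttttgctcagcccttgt
PLK1: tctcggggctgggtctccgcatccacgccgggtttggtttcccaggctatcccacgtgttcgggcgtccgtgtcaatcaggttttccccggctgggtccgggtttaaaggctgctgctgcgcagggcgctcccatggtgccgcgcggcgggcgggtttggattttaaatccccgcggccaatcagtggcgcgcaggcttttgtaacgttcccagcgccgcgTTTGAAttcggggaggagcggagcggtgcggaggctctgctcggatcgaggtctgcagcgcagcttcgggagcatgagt
The CDCA8 window is chr1:37692266-37692565 and the PLK1 window chr16:23678639-23678938, both on the plus strand and with 1 match. The PLK1 window also holds 1 CACGTG, left in lower case. CDCA8 went from 60.7 ± 3.71 FPKM in vehicle to 37.7 ± 2.04 (-0.67 ± 0.07, adjusted p = 7e-05) and PLK1, the polo-like kinase, from 69.7 ± 5.44 to 44.5 ± 5.38 (-0.64 ± 0.09, adjusted p = 0.00052). TTTGAA was in 22 of 34 windows of the G2/M list (64.7%) and 1 of 25 of the G1/S list (4.0%), against 9.31% of the windows of tested genes and 15.4% of all windows. Within the G2/M list it was in 11 of 20 windows of genes called lower and in 11 of 13 of those not called.

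**Figure D3:**
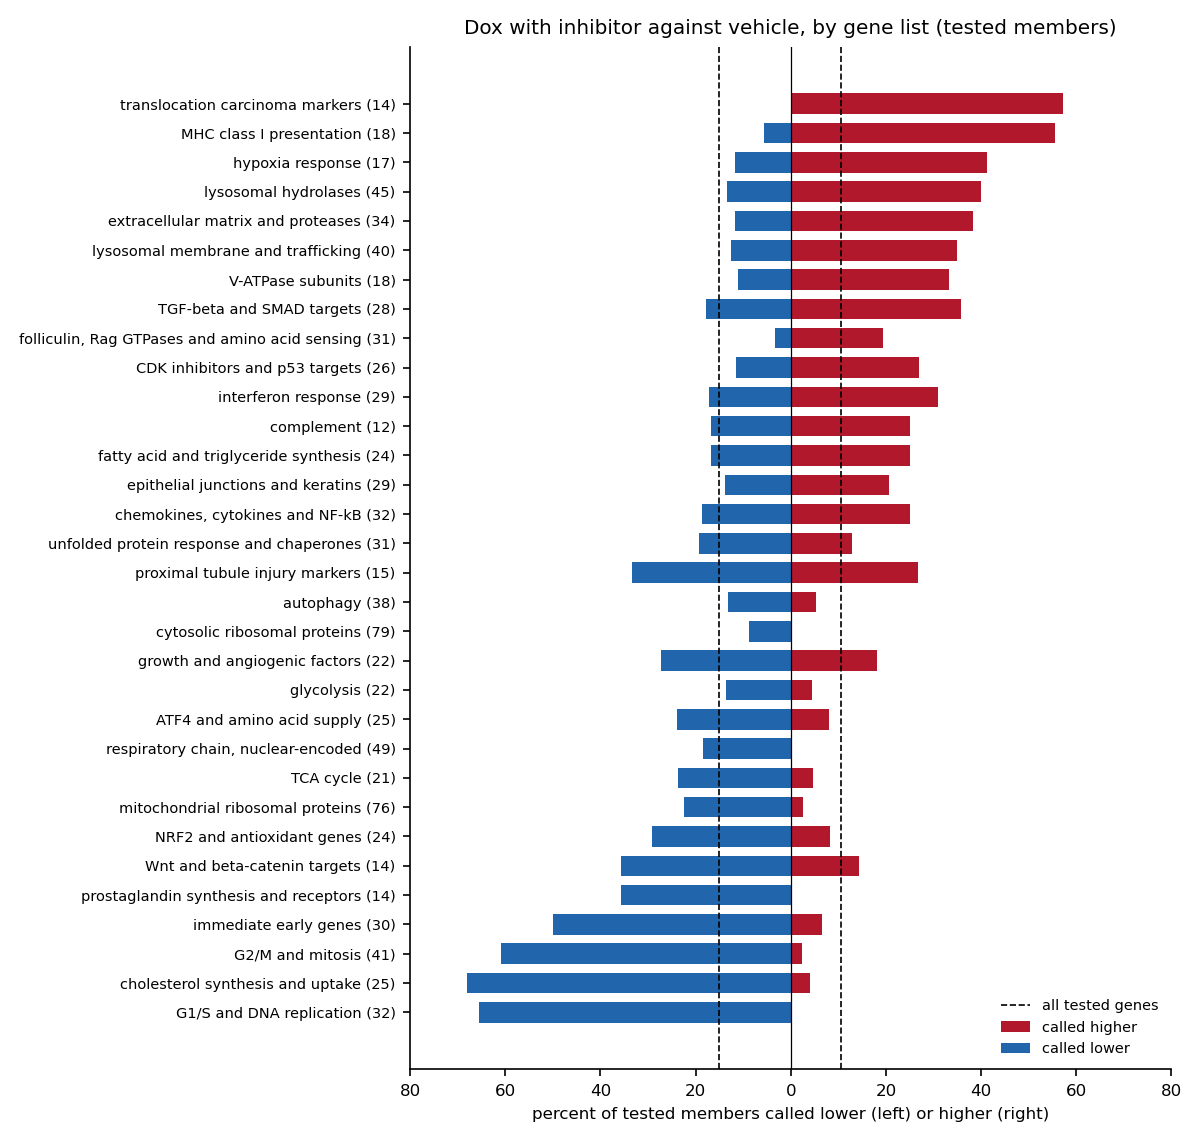
Percent of the tested members called lower (blue, left) or higher (red, right) in Dox plus inhibitor against vehicle, for each gene list with at least 12 tested members (number in parentheses); dashed lines mark 15.0% and 10.6%, the shares over all tested genes. Replication, cholesterol, mitosis and immediate early genes extend farthest to the left, and translocation carcinoma markers and MHC class I genes farthest to the right.

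ACTA2, MYL9 and TAGLN, which encode contractile proteins, rose. ACTA2, smooth muscle actin (chromosome 10, 88935074 to 88991339, minus strand), read 8.4, 7.41 and 7.72 FPKM with Dox plus inhibitor and 0.43, 0.47 and 0.47 with vehicle, a 17.2-fold ratio of means and a change of 2.60 ± 0.10 (adjusted p = 5.6e-08). It stood at 5.19 ± 0.736 with the inhibitor alone and 0.277 ± 0.131 with Dox alone, and exceeded the inhibitor group by 0.52 ± 0.10 (adjusted p = 0.0062). MYL9, a myosin light chain, read 1368, 1249 and 1198 FPKM against 400, 350 and 317 (1.84 ± 0.10, adjusted p = 6e-07), and its level with the inhibitor alone was 1257 ± 148. TAGLN, the actin-binding transgelin, rose by 1.24 ± 0.10 (adjusted p = 1.1e-05) from 173 ± 25.1 to 407 ± 21.4 FPKM, below the 571 ± 61.4 of the inhibitor group and above the 85.2 ± 5.14 of the Dox group. TAGLN and ACTA2 are also markers of smooth muscle cells and pericytes: of 11 fibroblast and pericyte markers 6 (PDGFRA, PDGFRB, DCN, COL3A1, MYH11, POSTN) were at or below 0.1 FPKM in all libraries, and the summed level of the 11 was 20.7 to 23.9 FPKM with Dox plus inhibitor and 10.2 to 12.1 with vehicle. Of these 11 markers 4 were tested, with 2 called higher and 1 lower. The higher ones were ACTA2 and RGS5, a pericyte marker (RGS5 went from 3.3 ± 0.721 to 7.32 ± 1.47 FPKM, adjusted p = 0.002). COL1A1 was called lower, a call that 13 of 21 settings lost, and LUM was not called. The part of other cells in these results was not tested.

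Among TGF-beta and SMAD targets 10 of 28 (35.7%) were higher and 5 (17.9%) lower, against 10.6% and 15.0% of all genes (median 0.19, with 10 to 12 higher when any 1 library was left out). The ligand gene TGFB2 rose from 32.9 ± 3.47 to 63.9 ± 7.41 FPKM (0.94 ± 0.11, adjusted p = 0.00015), while TGFB1 fell from 44.9 ± 3.92 to 26.4 ± 2.38 (-0.74 ± 0.10, adjusted p = 0.00028). ID2, an inhibitor of basic helix-loop-helix factors, read 2.4, 2.54 and 2 FPKM against 5.4, 4.5 and 4.81 (-0.83 ± 0.11, adjusted p = 0.00029). With Dox alone 17 of the 28 were lower, and with the inhibitor alone 19 were higher. Of 34 matrix and protease genes 13 (38.2%) were higher and 4 (11.8%) lower (median 0.15). TNC, tenascin C, rose from 1.69 ± 0.284 to 7.30 ± 0.253 FPKM (1.63 ± 0.09, adjusted p = 9.3e-07), COL12A1 from 45.6 ± 2.56 to 85.7 ± 5.73 (0.89 ± 0.09) and COL14A1 from 6.28 ± 0.199 to 19.3 ± 1.21 (1.47 ± 0.09, adjusted p = 1.1e-06). COL14A1, named because both steps went the same way, was at 8.88 ± 1.03 FPKM with Dox, and its difference from the inhibitor group, 0.15 ± 0.09, missed the threshold (adjusted p = 0.24). CEMIP, a hyaluronan-degrading protein, was at 0.01, 0.03 and 0.02 FPKM in vehicle and 1.19, 0.87 and 1.11 with Dox plus inhibitor (1.01 ± 0.09, adjusted p = 1.3e-05), with 3.99 ± 0.3 under Dox alone. MMP1, the interstitial collagenase, was the lowest of this list, at 0.68, 0.78 and 0.46 FPKM against 3.91, 4.27 and 4.64 (-1.69 ± 0.10, adjusted p = 1.3e-06). It was at 2.27 ± 0.317 with Dox and 2.95 ± 0.286 with the inhibitor, and the Dox plus inhibitor libraries lay below every library of the other 3 groups (adjusted p = 3e-05 against Dox, and -1.27 ± 0.10 against inhibitor, adjusted p = 2.8e-05). COL1A1 was called lower at -0.25 ± 0.08 (adjusted p = 0.049), which 13 of 21 settings lost, and VIM, vimentin, was not called at 612 ± 22.8 FPKM against 652 ± 24.8.

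Secreted factors moved in both directions. In the growth and angiogenic factor list 4 of 22 (18.2%) were higher and 6 (27.3%) lower (median 0.05), against 10.6% and 15.0% of all genes. PDGFB, a platelet-derived growth factor chain, read 28, 31.9 and 28.1 FPKM with Dox plus inhibitor, 6.01, 6.72 and 5.44 with vehicle, 2.38, 2.26 and 2.57 with Dox, and 63.2, 59.8 and 55 with the inhibitor, with no overlap among the 4 groups (2.10 ± 0.08 against vehicle, adjusted p = 5.6e-08). EDN1, endothelin 1, rose from 6.34 ± 0.504 to 22.9 ± 2.4 FPKM (1.70 ± 0.08) and IGFBP3, an IGF-binding protein, from 43.4 ± 3.99 to 144 ± 8.11 (1.71 ± 0.09). The EGF receptor ligand AREG read 9.52, 6.91 and 8.66 FPKM with Dox plus inhibitor and 21.1, 20.9 and 22.1 with vehicle (-1.27 ± 0.09, adjusted p = 4.3e-06). AREG was at 10.4 ± 0.456 with Dox and 20.9 ± 0.903 with the inhibitor. EREG, a related ligand chosen after its values were seen, was at 7.88 ± 0.555 FPKM against 16.7 ± 2.4 (-0.99 ± 0.10, adjusted p = 4.8e-05).

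In the cytokine and NF-kB list 8 of 32 members (25.0%) were higher and 6 (18.8%) lower (median 0.08), against 10.6% and 15.0% of all genes. CCL20, a chemokine for CCR6-bearing lymphocytes (chromosome 2, 227805739 to 227817564, plus strand), had the highest change among the genes the rule names: 16, 21.5 and 17.8 FPKM with Dox plus inhibitor against 1.86, 2.39 and 1.45 with vehicle, a 9.71-fold ratio of means (2.75 ± 0.15, adjusted p = 7.3e-07). It stood at 58.2 ± 7.81 with the inhibitor and 0.387 ± 0.189 with Dox. TNF rose from 5.09 ± 0.479 to 15.6 ± 1.63 FPKM (1.45 ± 0.10, adjusted p = 3.8e-06). CXCL8, interleukin 8, read 112, 133 and 133 FPKM against 189, 197 and 221 (-0.68 ± 0.08, adjusted p = 0.00016), with 300 ± 19 under the inhibitor and 57.5 ± 1.87 under Dox. CCL20 and CXCL8, both NF-kB-regulated chemokines, thus lay on opposite sides of vehicle. IL11, an IL-6 family cytokine, read 1.74, 1.54 and 1.33 FPKM against 7.44, 6.75 and 5.67 (-1.58 ± 0.11, adjusted p = 2.7e-06), and both groups with 1 agent were also low, at 1.81 ± 0.139 and 2.61 ± 0.365. IL6R, the IL-6 receptor, fell by 1.16 (-1.16 ± 0.07, adjusted p = 1.1e-06), with 9.16 ± 0.471 FPKM under Dox and 2.45 ± 0.223 under the inhibitor. IL32, the most abundant member not called, was at 163 ± 8.59 FPKM against 156 ± 12.1.

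**Figure D4:**
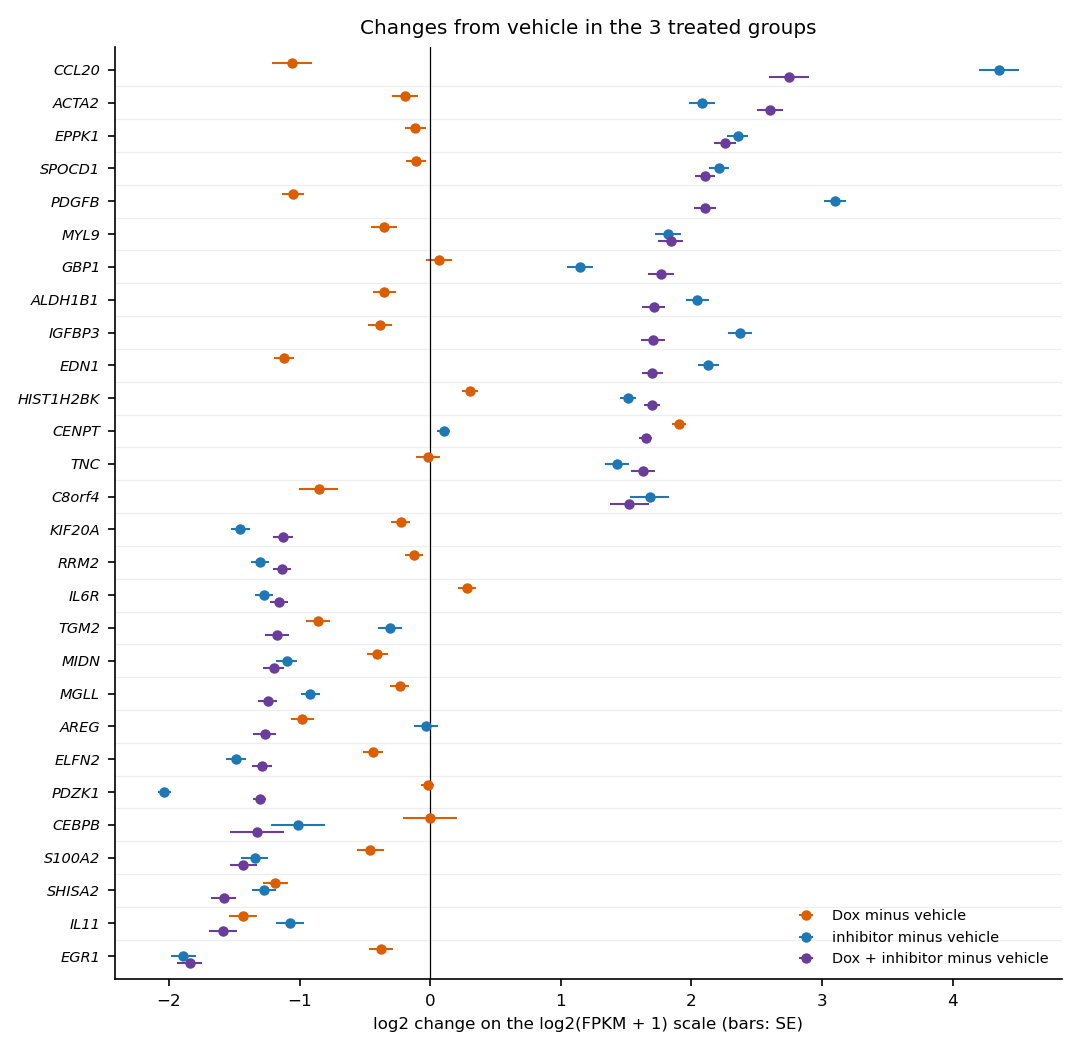
Log2 change from vehicle (horizontal axis, bars are SE) with Dox (orange), inhibitor (blue) and Dox plus inhibitor (purple) for the 14 highest and 14 lowest changes in Dox plus inhibitor among called genes with a mean FPKM of at least 5 in 1 of the groups compared and no overlap between them. CENPT and AREG are near 0 with the inhibitor, whereas ACTA2, EPPK1, MYL9, EGR1 and PDZK1 are within 0.4 of 0 with Dox; the 3 changes of a gene share the vehicle libraries.

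Of 30 immediate early genes 15 were lower and 2 higher (median -0.29), and 12 to 17 were lower when any 1 library was left out. EGR1, a zinc finger factor induced by growth signals, read 1.62, 1.54 and 1.79 FPKM with Dox plus inhibitor and 9.24, 9.27 and 7.12 with vehicle (-1.84 ± 0.09, adjusted p = 5.4e-07), with 1.56 ± 0.0862 under the inhibitor and 6.31 ± 0.385 under Dox. PHLDA1 fell by 1.02 (-1.02 ± 0.07), IER2 fell by 1.01 (-1.01 ± 0.10) and JUN, an AP-1 subunit, by 0.63 (-0.63 ± 0.06). PHLDA1 read 3.33, 3.28 and 3.36 FPKM, lower than in every library of the other 3 groups. MYC was at 127, 119 and 116 FPKM against 131, 116 and 112 in vehicle (change 0.01 ± 0.06, adjusted p = 0.94), and at 71 ± 1.5 with Dox and 178 ± 3.8 with the inhibitor. Its Dox plus inhibitor level thus overlapped vehicle, with the groups given 1 agent on either side. In the Wnt target list 5 of 14 (35.7%) were lower and 2 (14.3%) higher, against the same 15.0% and 10.6%, so that the higher share was near that of all genes. In this list 0 were higher on omitting vehicle replicate 1 or 3 or Dox plus inhibitor replicate 2 or 3. The higher count was 1 on omitting vehicle replicate 2, Dox replicate 2 or any 1 inhibitor replicate. DKK1, a secreted Wnt inhibitor, fell by 0.67 (-0.67 ± 0.06, adjusted p = 3e-05) and the ligand gene WNT7B by 0.72 (-0.72 ± 0.08, adjusted p = 0.00012).

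Interferon and antigen presentation genes were raised in part. Of 29 interferon response genes 9 (31.0%) were higher and 5 (17.2%) lower (median 0.20), against 10.6% and 15.0% of all genes. Of 18 MHC class I presentation genes 10 (55.6%) were higher and 1 (5.56%) lower (median 0.17, with 7 to 10 higher when any 1 library was left out). GBP1, a guanylate-binding protein, read 19.5, 19.5 and 21.1 FPKM with Dox plus inhibitor against 4.59, 4.85 and 6.18 with vehicle (1.77 ± 0.10, adjusted p = 7.2e-07), and it exceeded the inhibitor group (12.7 ± 1.36) by 0.62 ± 0.10 (adjusted p = 0.0019). DDX58, which encodes the RNA sensor RIG-I, rose by 1.15 ± 0.15 (adjusted p = 0.00027) and IFI27 by 1.10 ± 0.16. HLA-C rose by 0.51 ± 0.10 and HLA-F by 0.52 ± 0.11. HLA genes are close copies whose reads can be shared, so values of single HLA genes are uncertain. TAP1, a subunit of the peptide transporter, rose by 0.66 ± 0.09 (adjusted p = 0.00025). In the complement list C3 fell by 0.79 (-0.79 ± 0.07, adjusted p = 2.1e-05) and CFB by 0.81 (-0.81 ± 0.10). C3 was at 6, 6.24 and 6.11 FPKM, below all 9 libraries of the other groups.

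**Figure D5:**
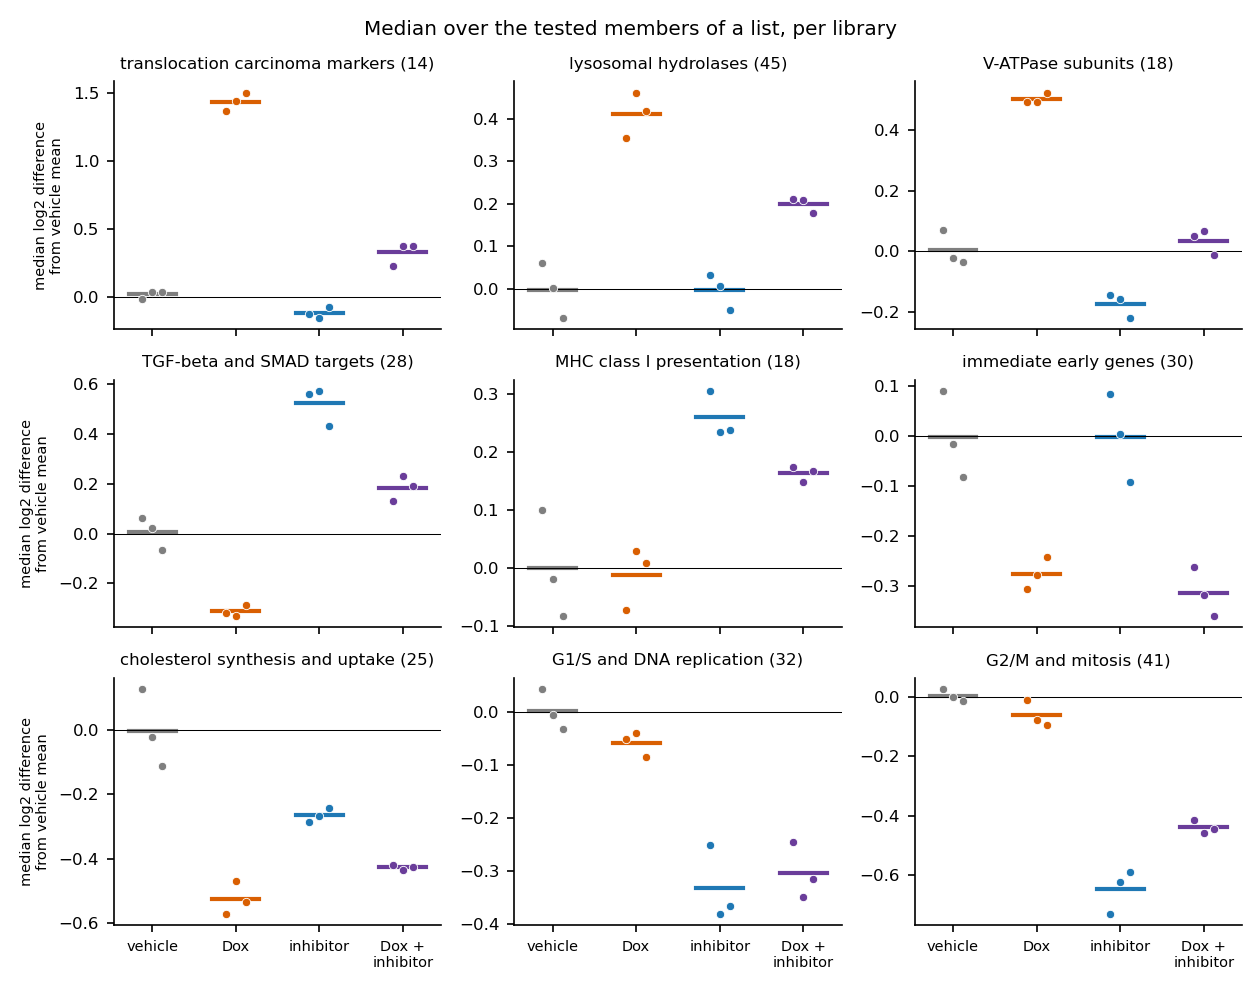
Median over the tested members of 9 gene lists of the log2 difference from the vehicle mean (vertical axes, different scales), 1 point per library and a bar for the mean of 3. G2/M medians with Dox plus inhibitor are -0.46 to -0.41, between vehicle (-0.02 to 0.03) and inhibitor (-0.73 to -0.59), and TGF-beta target medians are 0.13 to 0.23, between Dox and inhibitor.

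Of 49 nuclear-encoded respiratory chain genes 0 were higher and 9 lower (18.4%, near the 15.0% of all genes, median -0.15), and leaving out 1 library gave 3 to 14 lower, with 4 without vehicle replicate 1, 5 without vehicle replicate 2, 3 without Dox plus inhibitor replicate 2 or 3, and 14 without inhibitor replicate 1. NDUFS7, a complex I subunit, fell from 46.2 ± 4.21 to 31.1 ± 1.4 FPKM (-0.55 ± 0.09, adjusted p = 0.0011). In the TCA cycle list 5 of 21 (23.8%) were lower and 1 (4.76%) higher, against 15.0% and 10.6% of all genes. PC, pyruvate carboxylase, went from 3.09 ± 0.21 to 1.17 ± 0.158 FPKM (-0.92 ± 0.09, adjusted p = 4.9e-05) and SUCLG1 fell by 0.61 (-0.61 ± 0.09). Of 22 glycolysis genes 1 (4.55%) was higher and 3 (13.6%) lower (median 0.01), with 3 higher on omitting vehicle replicate 1, 2 on omitting inhibitor replicate 1, 5 with quantile normalization and 7 with the GC and length trend removed. The lactate exporter gene SLC16A3 fell by 0.60 (-0.60 ± 0.08, adjusted p = 0.00041). Hypoxia response genes had 7 of 17 higher (41.2%) and 2 lower (11.8%, median 0.13), led by EPAS1, which encodes HIF-2 alpha and went from 67.1 ± 3.87 to 126 ± 1.96 FPKM (0.90 ± 0.05, adjusted p = 6.6e-07), above all libraries of the other groups. The higher count of that list was 3 when vehicle replicate 2 or Dox plus inhibitor replicate 3 was omitted, and 4 when Dox plus inhibitor replicate 2 was omitted. HIF1A read 137, 175 and 181 FPKM against 94.3, 155 and 185, and the groups overlapped.

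In the stress lists, ATF4 and amino acid supply had 6 of 25 lower (24.0%) and 2 higher (8.0%), against 15.0% and 10.6% of all genes. Chaperones and unfolded protein response had 6 of 31 lower (19.4%) and 4 higher (12.9%), near these shares. NRF2 and antioxidant genes had 7 of 24 lower (29.2%) and 2 higher (8.33%), with 4 lower without Dox plus inhibitor replicate 2. CEBPB, a transcription factor of stress and inflammation, read 7.28, 5.8 and 6.26 FPKM against 21.4, 18.3 and 13.9 (-1.32 ± 0.21, adjusted p = 0.00083), while NUPR1, a stress-induced chromatin protein, rose by 0.95 ± 0.13 (adjusted p = 0.00037). HSPA8, a constitutive heat shock protein, fell from 995 ± 45.9 to 734 ± 37.6 FPKM (-0.44 ± 0.06, adjusted p = 0.00037). HSPA1A and HSPA1B, which are near-identical copies whose split is uncertain, fell by 0.43 (-0.43 ± 0.09) and 0.66 (-0.66 ± 0.07). The ferritin light chain gene FTL read 2534, 2206 and 2154 FPKM with Dox plus inhibitor, 3948, 3528 and 3246 with vehicle and 6267, 6709 and 6633 with Dox (-0.64 ± 0.10 against vehicle, adjusted p = 0.00066). FTH1, the heavy chain gene, was at 2876 ± 168 FPKM against 3146 ± 330 and was not called (-0.13 ± 0.11, adjusted p = 0.44), with 6903 ± 163 under Dox.

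Of 79 cytosolic ribosomal protein genes 7 were called lower (8.86%, against 15.0% of all genes) and of 76 mitochondrial ones 17 were lower (22.4%) and 2 higher. The medians were -0.18 and -0.13, against -0.01 for all tested genes. These counts moved with single libraries: omitting inhibitor replicate 1 gave a cytosolic count of 26, omitting Dox plus inhibitor replicate 1 gave 22, omitting vehicle replicate 2 gave 4, and the count was 2 on omitting vehicle replicate 1 or Dox plus inhibitor replicate 2 or 3, while the mitochondrial count was 11 without vehicle replicate 1 and 8 without Dox plus inhibitor replicate 2 or 3. With the GC and length trend removed 26 cytosolic and 29 mitochondrial genes were called lower. The cytosolic count was 55 with the replicate number as a block, which the main fit did not use, and 49 with both. Whether the cytosolic share lay below that of all genes thus depended on the setting. RPL10 fell from 478 ± 40 to 322 ± 8.62 FPKM (-0.57 ± 0.08, adjusted p = 0.00043) and MRPS18B from 42.7 ± 1.83 to 28.7 ± 2.13 (-0.56 ± 0.09, adjusted p = 0.0012). RPL41, the most abundant member, was not called at 2402 ± 188 FPKM against 2640 ± 177.

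Epithelial and tubular genes were mixed. Of 29 junction and keratin genes 6 (20.7%) were higher and 4 (13.8%) lower (median 0.07), against 10.6% and 15.0% of all genes. CLDN1, a tight junction claudin, rose from 170 ± 6.6 to 259 ± 23.7 FPKM (0.60 ± 0.07, adjusted p = 0.00017) and CLDN16 by 0.86 ± 0.09, whereas PKP3, a plakophilin of desmosomes, fell by 0.71 (-0.71 ± 0.10). KRT8 was not called (273 ± 15.1 against 295 ± 30.4). EPPK1, the keratin-binding epiplakin, read 15.9, 16.6 and 15 FPKM against 2.46, 2.8 and 2.31 (2.26 ± 0.08, adjusted p = 4.2e-08), with 17 ± 1.25 under the inhibitor. Injury markers of the proximal tubule had 4 of 15 higher (26.7%) and 5 lower (33.3%). SPP1, osteopontin, read 561, 592 and 638 FPKM against 199, 229 and 258 (1.39 ± 0.14, adjusted p = 3.6e-05), and ANXA3 rose by 1.02 ± 0.07, while S100A6 fell by 0.62 (-0.62 ± 0.11, adjusted p = 0.0022). The lower count of this list was 2 without vehicle replicate 2, 3 without vehicle replicate 3 and 3 without Dox plus inhibitor replicate 1. PDZK1, a scaffold of apical transporters, read 17.1, 17.2 and 16.1 FPKM against 42.7, 43 and 43.3 (-1.31 ± 0.05, adjusted p = 5.6e-08), 9.74 ± 0.54 under the inhibitor and 42.5 ± 0.0721 under Dox. DPP4, a brush border peptidase, was at 23.2 ± 2.1 FPKM against 16.7 ± 3.19 (0.47 ± 0.14, adjusted p = 0.028), a call that 6 of 22 settings lost. Of 8 tested proximal tubule markers 2 (25.0%), DPP4 and PAX8, were called higher and 1 (12.5%), SLC4A4, lower. The SLC4A4 call was lost in 3 of 22 settings. In the prostaglandin list 5 of 14 members (35.7%) were lower and 0 higher, among them HPGD, which degrades prostaglandins and fell by 0.61 (-0.61 ± 0.13, adjusted p = 0.0051), and PTGS1 (-0.33 ± 0.09, adjusted p = 0.022). The PTGS1 call was lost on omitting vehicle replicate 1 or Dox plus inhibitor replicate 2 or 3 and in the fit of 6 libraries. The prostaglandin list had 3 lower without Dox plus inhibitor replicate 2 and 2 lower when the 6 compared libraries were fitted alone.

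Some genes were lower in Dox plus inhibitor than with each agent alone. SHISA2 and S100A2 were named because Dox against vehicle and Dox plus inhibitor against Dox went the same way. For them a level below Dox describes the choice, while the difference from the inhibitor alone was not part of it. SHISA2 read 3.84, 4.7 and 4.29 FPKM against 15.8, 13.6 and 14.9 in vehicle, 5.95 ± 0.752 with Dox and 5.52 ± 0.333 with the inhibitor (-0.40 ± 0.09 against Dox, adjusted p = 0.008, and -0.31 ± 0.09 against inhibitor, adjusted p = 0.044). TGM2, transglutaminase 2, was at 34.1 ± 3.57 FPKM with Dox plus inhibitor, 78.2 ± 9.5 with vehicle, 42.4 ± 0.736 with Dox and 62.8 ± 3.82 with the inhibitor (-0.31 ± 0.09 against Dox, adjusted p = 0.023, and -0.86 ± 0.09 against inhibitor, adjusted p = 0.00015). MGLL, the monoglyceride lipase, was at 22.3 ± 0.904 FPKM against 54.3 ± 5.24 in vehicle, 45.9 ± 1.4 with Dox and 28.2 ± 1.64 with the inhibitor, and differed from both (adjusted p = 1.7e-06 and 0.011). For S100A2, a calcium-binding protein, the Dox plus inhibitor level of 31.3 ± 1.83 FPKM was far below vehicle at 86.4 ± 12.3 (-1.43 ± 0.10, adjusted p = 4.3e-06) and the difference from the inhibitor alone missed the threshold (-0.09 ± 0.10, adjusted p = 0.55).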

How the data were processed

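RNA of 12 HK-2 libraries (3 per group, described by the submitters as independent biological replicates) was extracted with TRIzol and made into TruSeq stranded mRNA libraries, per the labels' protocols. The deposited table gives FPKM per gene symbol, computed by the authors. GRCh38.p13, hg38, Salmon 1.9.0 and Trim Galore 0.6.7 are listed, without role or order, in the submitters' processing notes. How FPKM was calculated, and on which annotation, is not given in the sources used here. Mitochondrially encoded genes (0 symbols in the table) were not analysed here.

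Values were taken as log2(FPKM + 1) without rescaling. One model with 4 group means over 12 libraries (8 residual degrees of freedom) was fitted in R 4.3.3 by limma 3.58.1 (two-sided, moderated variances with a trend on intensity), and genes were called at a Benjamini-Hochberg adjusted p under 0.05 over all tested genes. The code was tested on simulated data. Gene lists (40, compiled from general knowledge) are described by counts and medians, with no set test. The members, the lists and the rule for named genes were chosen with earlier results of these data known. The rule named TFE3, PRCC, GPNMB, CCL20, CXCL8 and the Mediator kinase module, the 14 highest and 14 lowest called changes (mean FPKM of at least 5 in 1 group, no overlap, no small RNA or read-through symbols), the 4 largest called changes and the most abundant member not called in each list, the 10 largest changes with each agent alone, and the 8 largest changes of opposite and of the same sign for Dox and the added inhibitor. EREG and PLK1 were named after their values were seen. Some named genes are not reported here. Positions are from GENCODE for GRCh38 and promoter windows from RefSeq for GRCh38.p14. Alternatives changed the pseudocount (0.1), the filter, the scaling, the variance prior, the replicate block, the GC and length trend and the libraries used.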

Additional observations from a re-analysis of the deposited data

How the results depend on the processing

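The count of genes called in Dox plus inhibitor against vehicle (3238) was 3210 with a pseudocount of 0.1, 3045 without a filter, 2598 at a mean FPKM of at least 5, 3071 with median-ratio scaling, 3117 with quantile normalization, 3209 without an intensity trend, 2221 with the 6 compared libraries alone and 4537 with the GC and length trend removed. With the replicate number as a block it was 4599, and with the block and the trend removed 5167, of which 2246 were higher and 2921 lower. Leaving out each library in turn gave 2185 to 3707 called, 926 to 1529 higher and 1243 to 2178 lower, with the lowest counts without Dox plus inhibitor replicates 2 (1259 lower) and 3 (1243 lower). Dox plus inhibitor against inhibitor (2304) gave 4548 with the replicate block, 3466 with the trend removed, 4313 with both, and 1121 to 2920 without 1 library, with 1352 on omitting inhibitor replicate 2, 1245 on omitting Dox plus inhibitor replicate 2 and 1121 on omitting replicate 3 of that group. Dox plus inhibitor against Dox (4063) gave 5239 with the block and 3057 to 4478 without 1 library. Replicate numbers were not taken as pairing in the main fit, since the submitters describe the replicates as independent. Deviations of same-numbered vehicle and Dox plus inhibitor libraries correlated at 0.475, 0.0649 and 0.321, and pairs of groups ranged from -0.0904 to 0.686. Whether same-numbered libraries share an effect was not tested. The change correlated with transcript GC at a Spearman rho of -0.26 across genes, which are not replicates, with GC known for 94.8% of them. No named gene reversed. Of 162 named genes called, 135 stayed called under every setting in which they were tested (of 22), and 27 lost the call in at least 1; MED12L, NMRK2, ATG4D and COL1A1 lost it in more than 10. Higher genes made up 41.5% of calls, 48.4% with median-ratio scaling and 46.4% with quantile normalization. Among the lists the largest moves were in cytosolic ribosomal proteins, with 55 lower under the block, and mitochondrial ribosomal proteins, with 32. Read depth is unknown, so precision rests on 3 libraries per group, and leaving out 1 leaves 2.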
